A study of Mus musculus with 12 samples.

Results

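The response to daily maternal separation in cortical astrocytes that keep their glucocorticoid receptor was measured in 6 of the 12 RNA sequencing libraries of the series. They were taken by title and column name: 3 libraries of Cre- pups separated from the dam, called ESD, and 3 of Cre- pups that were not, the controls. All genes of the table entered the comparison. Per the labels, Cre- animals carried a floxed glucocorticoid receptor gene (Nr3c1 flox/flox) without Aldh1l1-CreERT2, a transgene in which an astrocyte promoter drives a recombinase that tamoxifen activates, so they are floxed animals with an intact receptor and not wild type. The other 6 libraries, AGR cKO control and AGR cKO ESD with 3 each, carried that transgene as well. ESD pups were taken from the dam for 3 hours daily over postnatal days 1 to 14. Every animal, controls included, received 4-hydroxytamoxifen from day 5 to 7, and astrocytes were purified from the cortex on day 14 by immunopanning and magnetic beads. The genotype entries count up with the replicate (Nr3c1, Nr3c2 and Nr3c3 flox/flox), and the titles were followed. The labels do not say how many pups or litters stand behind a library, so p-values measure the spread between these libraries, which may be technical.

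Glucocorticoids released under stress enter cells and bind a receptor held in the cytoplasm by heat shock protein chaperones. The bound receptor moves to the nucleus, where it switches on genes such as Fkbp5, Tsc22d3, Zbtb16 and Sgk1. Astrocytes express this receptor together with Hsd11b1, the enzyme that regenerates active corticosterone, and they use receptors such as MERTK and MEGF10 to engulf synapses.

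Total counts were 42603546 to 43659453 in the Cre- control and 47075985 to 50658633 in the Cre- ESD libraries, so the depths of the groups did not overlap. Levels are in CPM, which scales counts to a common library size, and are listed for libraries 1, 2 and 3 in turn. Astrocyte markers dominated every library: the 20 markers together took 5.15e+04 to 6.75e+04 CPM in the controls and 6.53e+04 to 6.92e+04 CPM in ESD, with Aldh1l1 at 377, 492 and 462 against 520, 544 and 525 CPM. All 12 libraries came from males by their transcripts, with Ddx3y of the Y chromosome at 79.9 to 126 CPM and Xist, the RNA of the inactive X, at 0.297 to 1.33 CPM.

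Few genes stood apart between separated and control Cre- pups. The edgeR quasi-likelihood test with Benjamini-Hochberg adjustment called 0 of 19163 genes at an adjusted p under 0.05 (0% called), and the smallest adjusted p was 0.1944, for Zbtb16. At an unadjusted p under 0.05 there were 517 genes higher in ESD (2.7% of the genes tested) and 861 lower (4.49%). Single libraries moved these counts: they were 843 and 1431 without the third ESD library, 364 and 433 without the first, and 891 and 841 without the second control. The 3 ESD libraries all lay above the 3 controls for 897 genes (4.68%) and all below for 1225 (6.39%). DESeq2 called 24 of the 15815 genes to which it gave an adjusted p (0.152%), 11 higher and 13 lower, with 1430 genes at an unadjusted p under 0.05. The 24 include genes seen in a single Cre- library: E130102H24Rik, at 3.09 CPM in the third ESD library, and Mfrp, at 2.46 CPM in the second control. The limma test on log2(TPM + 1) called 0. Differences were small: among the 11823 genes that averaged 5 CPM or more over the 6 libraries, 5% had a log2 fold change under -0.33 and 5% one above 0.25, around a median over all genes of -0.02, and the median standard error was 0.12. Only 13 of these genes differed by 2-fold or more, 7 higher and 6 lower.

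**Figure D1:**
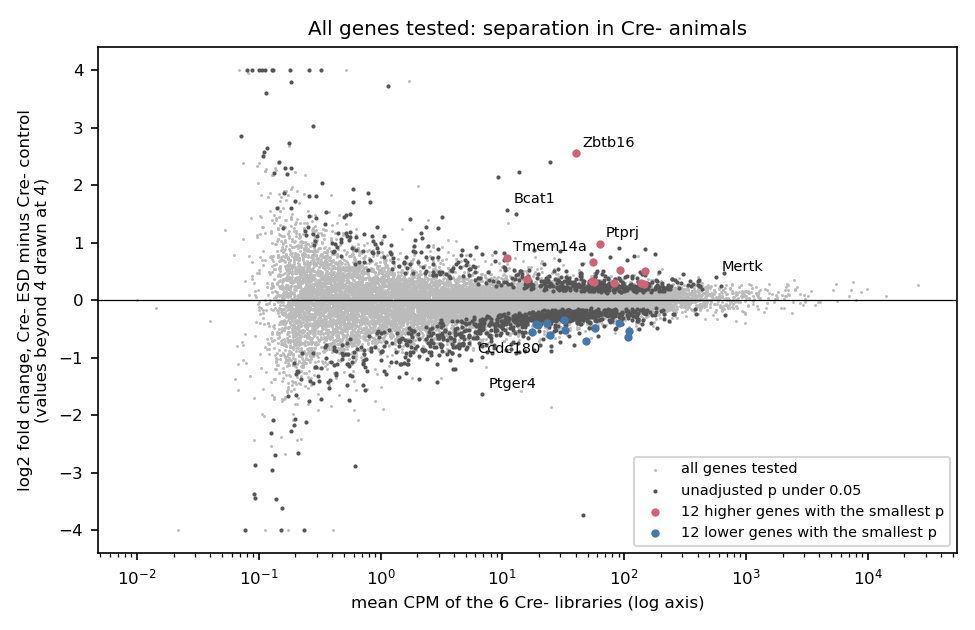
Log2 fold change of Cre- ESD against Cre- control for each of the 19163 genes tested (vertical axis, values beyond 4 drawn at 4) by mean CPM of the 6 libraries (log axis); dark points have an unadjusted edgeR p under 0.05, and coloured points are the 12 higher and the 12 lower genes with the smallest p. Zbtb16, at a log2 fold change of 2.56, is the coloured point farthest from 0, and the other coloured points lie within 1 log2 unit of 0.

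Zbtb16 (gene ID 235320, chromosome 9, 48651797 to 48836225), which encodes the zinc finger repressor PLZF and responds to glucocorticoids in many tissues, differed most clearly. It stood at 13.0, 10.8 and 11.3 CPM in the controls and at 54.5, 48.7 and 104 CPM in ESD. Every ESD library was thus more than 3 times above every control, and the third was the highest. The means were 11.7 ± 1.14 and 69.0 ± 30.3 CPM (SD, n = 3 each), a log2 fold change of 2.56 ± 0.35 (SE). Its unadjusted p was 1.01e-05 in edgeR, and the adjusted p was 0.1944 there and 3.19e-11 in DESeq2. Without the third ESD library the log2 fold change was 2.14.

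The other 11 of the 12 higher genes with the smallest p and no overlap between the groups were Tmem14a, Ptprj, Kank1, Fam184a, Erc1, Tmem50a, Plekhg1, Kcnd3, Sbf2, Ric3 and Nsun3. With Zbtb16, they had a median log2 fold change of 0.44, from 0.29 to 2.56, and adjusted p-values in edgeR of 0.1944 to 0.627. DESeq2 called 6 of the 12, against 0.152% of all genes to which it gave an adjusted p. The 12 were picked by a small edgeR p on the same counts, so these calls are no separate test. Such a pick also favours genes with little spread. Ptprj, a receptor tyrosine phosphatase, was at 52.3, 36.0 and 38.3 CPM in the controls and 82.2, 60.6 and 107 CPM in ESD. Its log2 fold change was 0.98 ± 0.19, and DESeq2 gave an adjusted p of 0.000757. Tmem14a, a small membrane protein, was at 7.54, 9.42 and 7.36 CPM against 13.7, 12.8 and 14.1 CPM, with tight ESD values and a log2 fold change of 0.74 ± 0.13 (DESeq2 adjusted p 0.000185).

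Kank1, a scaffold beside focal adhesions, was at 126, 123 and 117 CPM in the controls and 156, 148 and 149 CPM in ESD, a log2 fold change of 0.30 ± 0.06 between groups that barely spread (DESeq2 adjusted p 0.000323). Erc1, a cortical scaffold of microtubule ends and presynaptic active zones, was at 67.9, 78.9 and 73.8 against 88.7, 91.4 and 89.9 CPM (0.29 ± 0.07 on the log2 scale). In both genes every ESD library lay above every control, which the rule that picked them required. Its ranking by p also favours groups with little spread. Kcnd3, the Kv4.3 potassium channel, had a log2 fold change of 0.66 ± 0.16, and Plekhg1 one of 0.51 ± 0.12; DESeq2 called neither. Ric3 is a chaperone of nicotinic acetylcholine receptors. Chrna4, a subunit of these receptors, and Bcat1 are not among the 12 and were named for their folds. Chrna4 stood at 6.17, 5.72 and 2.55 CPM in the controls and at 8.79, 36.7 and 22.3 CPM in ESD, with a log2 fold change of 2.23 ± 0.89 that carries a wide error. Bcat1, which starts the breakdown of branched-chain amino acids in the cytosol, was at 4.01, 6.30 and 6.21 against 11.04, 7.88 and 30.2 CPM (1.57 ± 0.42). Its fold dropped to 0.78 on the log2 scale without the third ESD library.

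The 12 lower genes with the smallest p and no overlap between the groups were Bcorl1, Slc8b1, Ampd2, Ripor2, Gramd1a, Zfp579, Fbxl19, Fzd10, Mogs, Six5, Sned1 and Pde4a. Their differences were modest and even, with log2 fold changes from -0.71 to -0.34 and a median of -0.50, and without the third ESD library from -0.80 to -0.32. DESeq2 called 11 of the 12, all but Pde4a, against 0.152% of all genes to which it gave an adjusted p. Like the higher genes, the 12 were picked by a small edgeR p on the same counts, so these calls are no separate test. Bcorl1, a transcriptional corepressor tied to Polycomb complexes, was at 26.2, 26.7 and 25.7 CPM in the controls and 20.3, 19.7 and 19.7 CPM in ESD, with almost no spread in either group. Its log2 fold change was -0.40 ± 0.07. Slc8b1, the sodium-calcium exchanger of the mitochondrial inner membrane, was at 62.5, 71.2 and 69.3 against 49.2, 49.1 and 47.0 CPM (-0.48 ± 0.08). Ampd2, an AMP deaminase of purine metabolism, was at 123, 137 and 133 against 80.4, 90.9 and 98.6 CPM (-0.54 ± 0.09). In each of these 3 genes the highest ESD library lay under the lowest control, as the rule that picked them required. Little spread is likewise favoured by its ranking by p.

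Fzd10, a Frizzled receptor for Wnt ligands, stood at 51.7, 57.9 and 72.5 CPM in the controls and 34.1, 35.5 and 41.6 CPM in ESD, the largest difference of the 12 (-0.71 ± 0.15). Pde4a, a phosphodiesterase that degrades cyclic AMP, had a log2 fold change of -0.41 ± 0.10. Sned1, an extracellular matrix glycoprotein, was at 123, 134 and 132 against 77.9, 86.0 and 87.7 CPM (-0.63 ± 0.14). Gramd1a, a sterol transporter between the plasma membrane and the endoplasmic reticulum, differed by -0.40 ± 0.08, and Mogs, the glucosidase that opens N-glycan trimming, by -0.55 ± 0.12. Ripor2, an inhibitor of RhoA, differed by -0.61 ± 0.11. Ptger4, the EP4 receptor for prostaglandin E2, showed the largest fold among the lower genes named by the rule, which leaves out predicted symbols, at 10.8, 6.49 and 13.8 against 2.13, 3.04 and 4.88 CPM (-1.63 ± 0.50). Ahr, the aryl hydrocarbon receptor, was at 8.003, 6.98 and 10.8 against 5.10, 5.67 and 4.14 CPM (-0.79 ± 0.28). DESeq2 called neither Ptger4 nor Ahr.

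**Figure D2:**
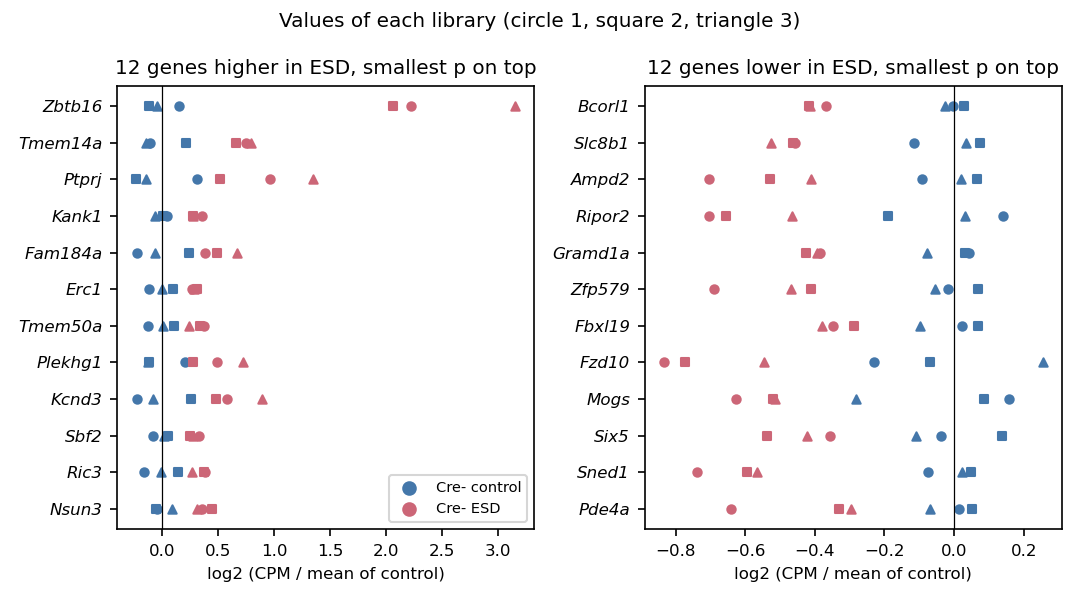
Each library's log2 ratio of CPM to the mean of the 3 Cre- controls for the 12 higher (left) and the 12 lower genes (right), chosen for groups that do not overlap; symbols mark libraries 1, 2 and 3. Zbtb16 spans the widest range on the left, where the third ESD library is highest, while the lower genes sit close together.

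The receptor itself and its partners differed little. Nr3c1 (chromosome 18, 39410545 to 39519421) stood at 214, 210 and 237 CPM in Cre- controls and 209, 205 and 199 CPM in Cre- ESD, so that each ESD value lay just under each control. The log2 fold change was -0.11 ± 0.12 with an adjusted p of 0.869. Its mean was 101 ± 7.45 CPM in AGR cKO control and 84.3 ± 15.6 CPM in AGR cKO ESD (SD, n = 3), lower than in the Cre- libraries. Of 13 genes of the receptor machinery, 4 were higher and 9 lower in Cre- ESD. Stip1, the adaptor between HSP70 and HSP90 on the way to a ligand-ready receptor, had the smallest p, at 75.7, 68.3 and 66.1 against 52.5, 62.3 and 62.2 CPM (-0.25 ± 0.09). Hsd11b1 was at 67.0, 118 and 119 against 102, 90.9 and 128 CPM, with overlapping groups.

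The list of 25 genes known to respond to glucocorticoids was mostly carried by 1 library. In the full comparison 21 members were higher and 4 lower, with a median log2 fold change of 0.12 against -0.02 over all genes. In the higher direction 4 of the 25 members passed an unadjusted p of 0.05, against 2.7% of all genes tested. Those 4 were Zbtb16, Fkbp5, Plin4 and Hif3a. Against the mean of the controls, the median of the list was 0.08 in the first, -0.04 in the second and 0.47 in the third ESD library on the log2 scale. Without the third library 10 members were higher and 15 lower, and the median was -0.08.

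Fkbp5 (gene ID 14229, chromosome 17, 28398753 to 28486149), a cochaperone that lowers the receptor's affinity for its ligand, shows this most plainly. It was at 6.85, 9.53 and 7.17 CPM in the controls and at 11.1, 9.93 and 103 CPM in ESD. The first and second ESD libraries lay just above the highest control, and the third was 9.3 times above the next library. The log2 fold change was 2.40 ± 0.73, and 0.42 without the third library. Plin4, a lipid droplet coat protein, was at 1.96, 5.72 and 2.48 against 4.17, 3.12 and 37.4 CPM (2.13 ± 0.80, and 0.11 without it). Hif3a, a hypoxia-inducible factor subunit, was at 103, 171 and 115 against 191, 125 and 362 CPM (0.80 ± 0.34, and 0.28 without it). Tsc22d3, which encodes the anti-inflammatory protein GILZ, was at 137, 156 and 189 against 140, 152 and 367 CPM. Its log2 fold change turned from 0.45 ± 0.31 to -0.14 without the third library. Sgk1, a kinase that regulates ion channels, overlapped throughout, at 108, 51.0 and 74.6 against 95.2, 77.7 and 69.1 CPM. In Fkbp5, Plin4, Hif3a and Tsc22d3 the third ESD library was the highest of the 6. Zbtb16 alone among these 6 genes stood more than 3 times above every control in the first and second ESD libraries.

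**Figure D3:**
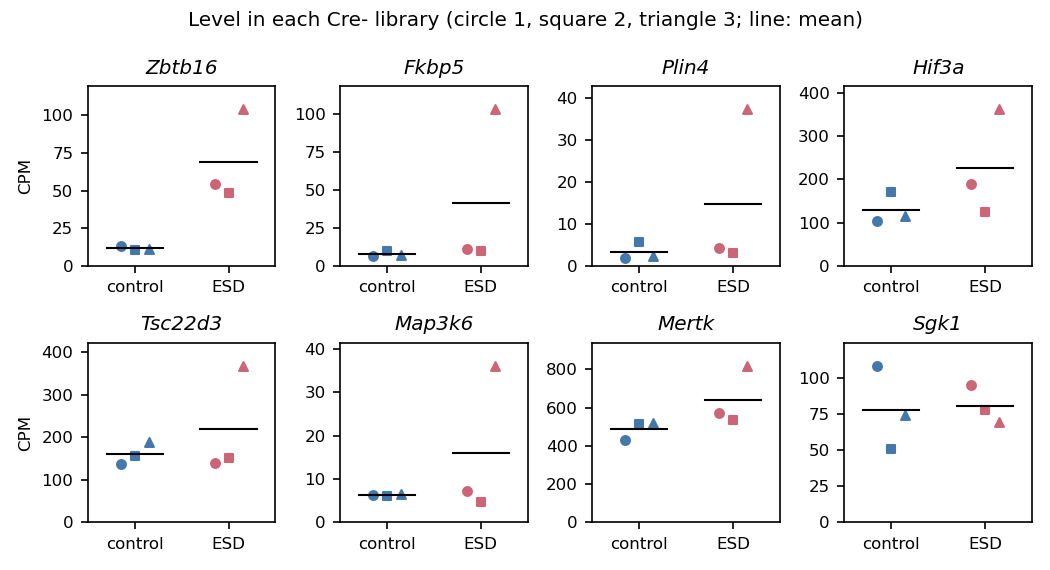
CPM of 8 genes in each of the 6 Cre- libraries, with a line at the mean of 3; symbols mark libraries 1, 2 and 3. In Fkbp5, Plin4, Hif3a, Tsc22d3, Map3k6 and Mertk the third ESD library stands alone at the top, at 103 CPM for Fkbp5, and in Zbtb16 all 3 ESD libraries stand above the controls.

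The promoters of the members with the smallest p and an entry in the RefSeq table (GRCm38.p6) are given because these genes were high together in the same library. Of the 25 members 21 had an entry, and Zbtb16 and Sgk3 were among the 4 without. Each sequence runs 5′ to 3′ on the gene's strand, from 250 bases before the start to 50 after it, with the transcribed 50 bases in capitals. Fkbp5 lies at chr17:28486100-28486399, Plin4 at chr17:56109733-56110032 and Hif3a at chr7:17062378-17062677, all on the minus strand.
Fkbp5: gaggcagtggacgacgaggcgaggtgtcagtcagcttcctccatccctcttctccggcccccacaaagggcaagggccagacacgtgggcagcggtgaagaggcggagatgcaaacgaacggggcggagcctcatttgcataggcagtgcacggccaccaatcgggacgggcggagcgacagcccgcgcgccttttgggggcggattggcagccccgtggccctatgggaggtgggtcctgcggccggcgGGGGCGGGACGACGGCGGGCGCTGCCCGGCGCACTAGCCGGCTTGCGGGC
Plin4: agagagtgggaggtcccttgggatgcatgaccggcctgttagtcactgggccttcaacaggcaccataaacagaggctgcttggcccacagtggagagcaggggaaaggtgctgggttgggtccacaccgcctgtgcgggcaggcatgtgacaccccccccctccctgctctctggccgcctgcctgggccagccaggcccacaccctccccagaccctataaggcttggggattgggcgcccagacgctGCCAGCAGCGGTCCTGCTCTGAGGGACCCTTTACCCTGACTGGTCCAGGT
Hif3a: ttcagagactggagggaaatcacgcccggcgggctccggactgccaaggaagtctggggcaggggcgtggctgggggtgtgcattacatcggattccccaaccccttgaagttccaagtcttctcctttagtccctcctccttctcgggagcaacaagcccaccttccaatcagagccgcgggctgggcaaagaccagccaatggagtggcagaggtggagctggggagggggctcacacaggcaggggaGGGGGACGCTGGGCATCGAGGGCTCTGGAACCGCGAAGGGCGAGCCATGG
The 6-letter element bound by 1 receptor monomer, AGAACA or TGTTCT on the other strand, was in 0 of these 3 promoters. It was in 19.0% of all 32851 promoters of the table. Of the 21 members with an entry, 4 held it in at least 1 promoter. They were Tsc22d3 (1 of 3 promoters), Sult1a1 (1 of 1), Bcl6 (1 of 2) and Sgk1 (3 of 6). This count is by gene, while the share is by promoter. The 15-letter palindrome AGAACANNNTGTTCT was in 3 promoters of the table. Receptor elements farther from a start are outside these windows.

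AGR cKO animals, whose Nr3c1 level was lower but not at 0, served to compare the separation effect between genotypes. The difference between the effects of the 2 genotypes was called for 0 of 19163 genes by edgeR (0% called), with 860 at an unadjusted p under 0.05 (4.49%), and for 9 of 19157 by DESeq2 (0.047%), among them Sez6l2, Fzd10, Il4i1, Slc17a7, Zbtb16, Cacng8, Abcb9 and Ptprn. Il4i1 was close to 0 throughout, at 0, 0 and 0.0469 CPM in Cre- controls and 0.709, 0.810 and 0 CPM in Cre- ESD. Its mean was 0.433 CPM in AGR cKO control and 0 CPM in AGR cKO ESD. Zbtb16 averaged 9.81 ± 1.34 CPM in AGR cKO control and 12.3 ± 6.06 CPM in AGR cKO ESD (SD, n = 3), a log2 fold change of 0.32 ± 0.34. The difference between genotypes was 2.24 ± 0.48, with an adjusted p of 0.98 in edgeR and 0.00456 in DESeq2. Fzd10 averaged 44.9 ± 2.35 and 61.4 ± 10.9 CPM in the AGR cKO groups, so its fold was 0.45 there and -0.71 in Cre-, a difference of -1.16 ± 0.21 (DESeq2 adjusted p 0.00331). Of the 12 higher genes 7, and of the 12 lower genes 10, had an unadjusted p under 0.05 for the difference. Those genes were picked for their values in the Cre- libraries, which enter the difference too, so these counts describe them and test nothing. In AGR cKO animals the 12 higher genes had log2 fold changes from -0.03 to 0.32 and the 12 lower ones from -0.25 to 0.45. Sez6l2, Slc17a7 and Ptprn, which are expressed by neurons, had log2 fold changes from -1.80 to -1.16 in AGR cKO and from 0.22 to 0.57 in Cre- animals. Slc17a7, a vesicular glutamate transporter, was at 2.75, 2.11 and 2.44 against 3.91, 1.86 and 5.10 CPM in Cre- animals, and averaged 6.946 ± 1.301 and 1.999 ± 0.561 CPM in AGR cKO.

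Mertk, the engulfment receptor named in the title of the series, was higher in every Cre- ESD library than in any control. The same held for 4.68% of all genes tested, and Mertk was not called. It stood at 429, 512 and 520 CPM in the controls and 570, 534 and 818 CPM in ESD. The second ESD library lay just above the highest control, and the third far above. The log2 fold change was 0.40 ± 0.17 with an unadjusted p of 0.039 and an adjusted p of 0.691, and it was 0.18 without the third library. In AGR cKO animals it was 0.18, and the difference between genotypes had an unadjusted p of 0.388. Axl, a related receptor, was at 365, 435 and 438 against 448, 415 and 448 CPM (0.08 ± 0.09). Megf10, another engulfment receptor of astrocytes, was at 172, 240 and 206 against 194, 185 and 239 CPM, with a log2 fold change of 0.00 ± 0.16. Gas6, a ligand that bridges MERTK and AXL to phosphatidylserine, was at 106, 108 and 106 against 87.5, 77.3 and 117 CPM (-0.19 ± 0.12). Without the third ESD library, the 1 above the controls, its log2 fold change was -0.37, with an adjusted p of 0.204 in edgeR. Among the 22 engulfment genes 9 were higher and 13 lower. Jmjd6 (-0.32 ± 0.10) and Abca7, a lipid transporter (-0.44 ± 0.15), were below an unadjusted p of 0.05 in the lower direction. Of 22 lysosome and phagosome genes 15 were higher, with a list median log2 fold change of 0.07. An unadjusted p under 0.05 was reached by 3 of the higher ones, against 2.7% of all genes tested. They were the endosomal GTPase Rab5a (0.19 ± 0.08), the cholesterol-binding Npc2 (0.18 ± 0.08) and the proton pump subunit Atp6v1a (0.18 ± 0.08).

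All 24 cytosolic ribosomal protein genes had positive log2 fold changes, from 0.06 to 0.39, with a median of 0.18 against -0.02 over all genes. Of the 24, 5 were at an unadjusted p under 0.05, where 2.7% of all genes tested were higher. The median of the list was 0.33 in the first, 0.27 in the second and -0.06 in the third ESD library, relative to the control mean, and the controls ranged from -0.12 to 0.11, so that the third ESD library lay among them. Rps14 stood at 74.1, 75.8 and 85.5 CPM in the controls and 114, 103 and 92.1 CPM in ESD (0.39 ± 0.10), and Rpl27 at 48.4, 46.7 and 49.5 against 65.3, 63.0 and 54.8 CPM (0.34 ± 0.10). In both the third ESD library was the nearest to the controls, opposite to the glucocorticoid-responsive genes. Many ribosomal protein genes have near-identical pseudogenes, so their counts can depend on how reads were assigned. In AGR cKO animals 23 of the 24 were higher too, with a median of 0.14. Of 19 fatty acid oxidation genes 17 were higher (median 0.08), among them Acadl (0.18 ± 0.08) and Etfb (0.20 ± 0.09), at an unadjusted p under 0.05. Of 22 nuclear-encoded genes of oxidative phosphorylation 20 were higher (median 0.11), none at that threshold, and 7 of the 13 mitochondrially encoded ones were higher (median 0.02).

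Of 22 genes of cholesterol synthesis 16 were lower, with a median log2 fold change of -0.07 against -0.02 over all genes. An unadjusted p under 0.05 was reached by 4, all lower, against 4.49% of all genes tested in that direction. The median of the list relative to the control mean was -0.10, 0.02 and 0.05 in the controls and -0.03, -0.07 and -0.14 in ESD, so the groups overlapped. Mvd, which makes isopentenyl diphosphate, was at 72.7, 67.5 and 68.3 against 52.7, 56.8 and 54.4 CPM (-0.35 ± 0.08). Hsd17b7, a late enzyme of the pathway, was at 66.9, 71.3 and 77.1 against 54.0, 57.6 and 60.3 CPM (-0.33 ± 0.09). Both had groups that did not overlap. Dhcr7, which makes cholesterol in the last step of 1 branch, differed by -0.20 ± 0.09. Without the third ESD library 9 members were higher and 13 lower in Cre- animals (median -0.05). In AGR cKO animals 20 of the 22 members were higher in ESD (median 0.11). For the difference between genotypes 4 members had an unadjusted edgeR p under 0.05, against 4.49% of all genes tested.

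In each of the remaining functional lists at most 2 members had an unadjusted p under 0.05. Over all genes tested 45.9% were higher, and at that threshold 2.7% were higher and 4.49% lower. The 19 homeostatic genes of glutamate and potassium handling had 15 higher (median 0.07), with Slc1a2 at 18052, 25798 and 26685 against 29869, 25960 and 28507 CPM. Of 21 factors by which astrocytes regulate synapses 5 were higher and 16 lower (median -0.06), none at an unadjusted p under 0.05. The 13 pan-reactive genes had a median of 0.05, the 13 genes of the A1-type reactive profile -0.11 and the 12 of the A2-type -0.02. Fkbp5 is also a member of the A1-type list and was its 1 member at an unadjusted p under 0.05. The 20 interferon-stimulated genes had a median of 0.02, with Ifit3 the 1 member at that threshold, at 6.19, 7.73 and 8.30 against 13.4, 10.7 and 15.3 CPM (0.83 ± 0.33). The 20 immediate early and heat shock genes had 15 lower (median -0.04), with the chaperone Dnajb1 at -0.36 ± 0.11. Among 19 clock genes the median was 0.03; Npas2 (0.34 ± 0.15) and Rorb (-0.32 ± 0.11) lay in opposite directions. Of 19 genes of the brain's extracellular matrix 9 were higher (median -0.03), and the protease Adamts5 was at -0.66 ± 0.29. The 20 glycolysis and lactate genes had a median of 0.05 and Hk1, a hexokinase, at -0.15 ± 0.06. The 21 cell cycle genes had 6 higher and 15 lower (median -0.10) and none at that threshold, and without the third ESD library 13 were higher and 8 lower (median 0.05).

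Of 16 markers of ependyma and choroid plexus, several of them genes of motile cilia, 15 were lower in ESD, with a median log2 fold change of -0.54. An unadjusted p under 0.05 was reached by 5, all lower, against 4.49% of all genes tested in that direction, and an adjusted one by 0. The median of the list relative to the control mean was 0.10, 0.35 and -0.49 in the controls and -0.56, -0.56 and -0.21 in ESD, so the third control lay among the ESD libraries. Foxj1, the master regulator of motile cilia, was at 46.0, 60.7 and 38.8 CPM in the controls and 25.4, 28.9 and 30.6 CPM in ESD, with every ESD library under every control (-0.78 ± 0.21, adjusted p 0.627). Ccdc153, a ciliary protein, was at 22.9, 20.1 and 11.02 against 8.44, 8.89 and 11.5 CPM (-0.90 ± 0.31), where the groups overlapped. Among the 6 lowest folds named by rule were also Dnah3, an axonemal dynein heavy chain (-0.92 ± 0.30), Dnaaf3, a dynein arm assembly factor (-0.82 ± 0.30), and Wdr66, a protein of cilia and flagella (-0.84 ± 0.30). The summed level of the 16 markers was 180, 208 and 127 CPM in the controls and 104, 112 and 131 CPM in ESD, so the groups overlapped. Ttr, which defines choroid plexus, was at 0 in 3 of the 6 libraries and at most 0.73 CPM in the rest. In bulk RNA, fewer cells of a type and less RNA per cell cannot be told apart. The list was lower in AGR cKO ESD as well, for 15 of 16 members with a median of -0.35.

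The 14 endothelial markers summed to 2221, 425 and 795 CPM in the controls and 1316, 1059 and 520 CPM in ESD. All 14 were lower in ESD (median -0.28), but 7 were lower and 7 higher without the third ESD library, and none had an unadjusted p under 0.05. The 20 microglia and macrophage markers summed to 1317, 454 and 651 against 1059, 746 and 619 CPM. The first control was thus the richest in both, and the second the poorest. The 13 mural cell and fibroblast markers summed to 5801, 2945 and 5669 against 3665, 2911 and 5917 CPM. The 19 neuron markers summed to 140, 177 and 171 against 208, 183 and 175 CPM, with 15 higher (median 0.16), and the 11 tested oligodendrocyte markers to 233, 274 and 270 against 264, 280 and 239 CPM, with Mobp of myelin at 1.35, 2.11 and 1.62 against 4.80, 2.86 and 2.09 CPM (0.94 ± 0.30). The 12 precursor markers summed to 326 to 498 CPM in the controls and 366 to 428 CPM in ESD, and 5 erythroid genes to 104 to 209 and 132 to 224 CPM. Apart from Ttr, no defining marker that was tested was at 0 in any of the 6 libraries, and Mog of mature oligodendrocytes was too low to be tested. With the levels of microglial and endothelial markers as covariates, edgeR called 0 genes, and 863 were higher and 1105 lower at an unadjusted p under 0.05. The part of these cells in the values of single genes was not tested.

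**Figure D4:**
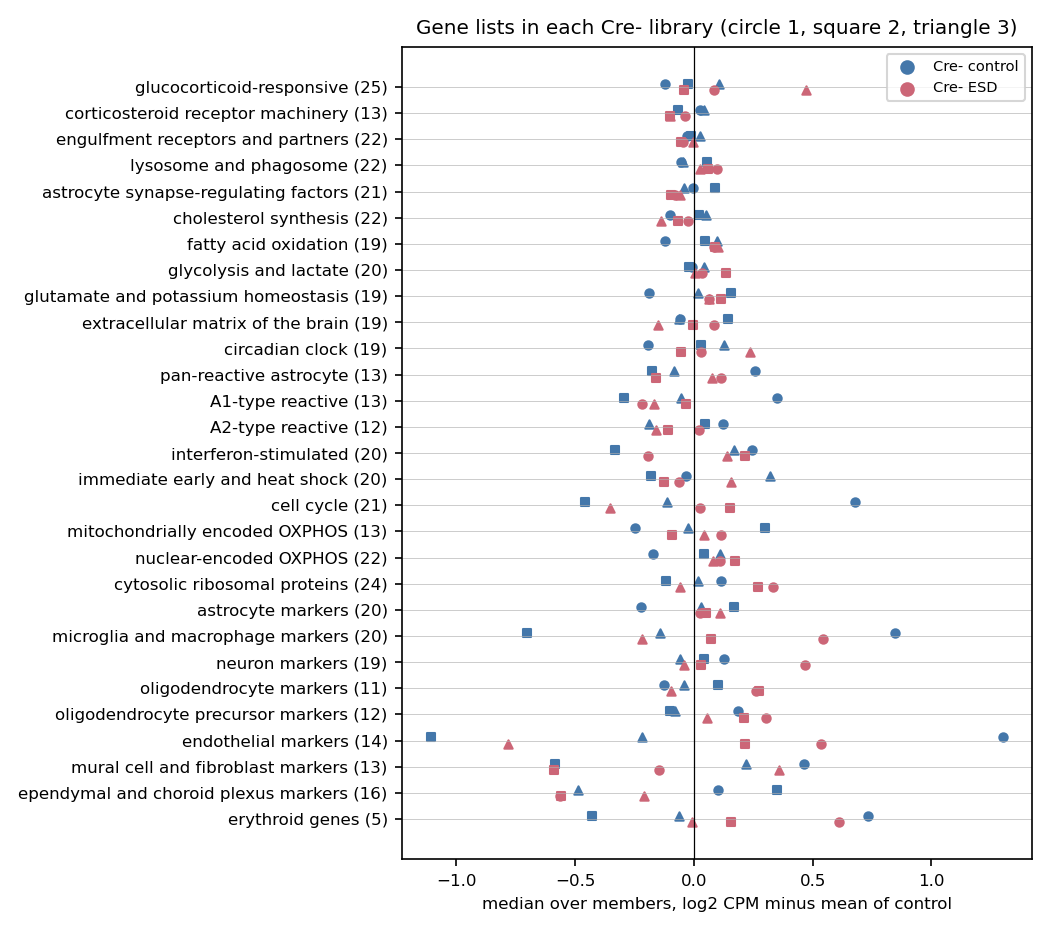
For each list (members tested in brackets), the median over its members of log2 CPM minus the mean of the 3 Cre- controls, in each of the 6 Cre- libraries; symbols mark libraries 1, 2 and 3. The third ESD library stands apart at 0.47 for glucocorticoid-responsive genes, the first and second at 0.33 and 0.27 for ribosomal proteins, and the endothelial values of the controls range from -1.107 to 1.303.

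Single libraries carried some of the values above. Genes of at least 5 CPM that were 2-fold or more above the next of the 6 Cre- libraries numbered 60, 1 and 3 in the controls and 2, 0 and 38 in the ESD libraries. The 38 in the third ESD library were out of 19163 genes tested, and held 4 of the 25 glucocorticoid-responsive members. These were Fkbp5, Plin4, Sult1a1 and Arrdc2, the last named after its values were seen, as was Sult1a1. By the ratio to the next library, Fkbp5 and Plin4 came first among the genes without a predicted symbol. Map3k6, a kinase of the MAP kinase cascade, came after these, at 36.1 CPM against 4.64 to 7.35 CPM in the other 5. Trpc2, a cation channel, was at 7.82 CPM against at most 1.72 CPM, and Rtp1, a chaperone of odorant receptors, at 10.2 CPM against at most 3.07 CPM. They were followed by Etnppl, an astrocyte enzyme that degrades phosphoethanolamine, at 79.6 CPM against at most 25.7 CPM. In the first control Aplnr, the apelin receptor of vessels, was among the leading genes, at 79.1 CPM against 5.23 to 30.1 CPM in the other 5. That control was also the one with the most endothelial RNA. Correlated over 11677 genes, all 3 controls and the third ESD library resembled the libraries of the other group at least as much as their own: the third ESD library had a median r of 0.973 with its own group and 0.981 with the controls, and the first control 0.967 and 0.972.

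The lower genes were richer in G and C than the higher ones. GC content was taken from the longest transcript of each gene in GENCODE M21, which gave a value for 96.0% of the 11823 genes with at least 5 CPM. The median was 49.6% for all of them, 47.3% for those at an unadjusted p under 0.05 and higher, and 53.4% for those lower. It was 48.4% for the 12 higher and 56.8% for the 12 lower genes named above. From the lowest to the highest of 5 equal bins of GC content, the share of genes lower at an unadjusted p under 0.05 went from 2.69% to 10.1%, and the share higher from 3.74% to 1.41%. In the highest bin, the median level relative to the control mean was -0.08, -0.07 and -0.05 in the 3 ESD libraries and from -0.02 to 0.02 in the controls on the log2 scale. The median log2 fold change of that bin was -0.07 in Cre- animals and 0.05 in AGR cKO animals. With each library's trend by GC content removed, 593 genes were higher and 740 lower at an unadjusted p under 0.05, in place of 517 and 861, and 0 were called. The 12 lower genes stayed lower, with smaller folds in all but Ripor2. Fbxl19 went from -0.34 to -0.26 and Zfp579 from -0.52 to -0.44 on the log2 scale. The part of library preparation in the trend by GC content was not tested.

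**Figure D5:**
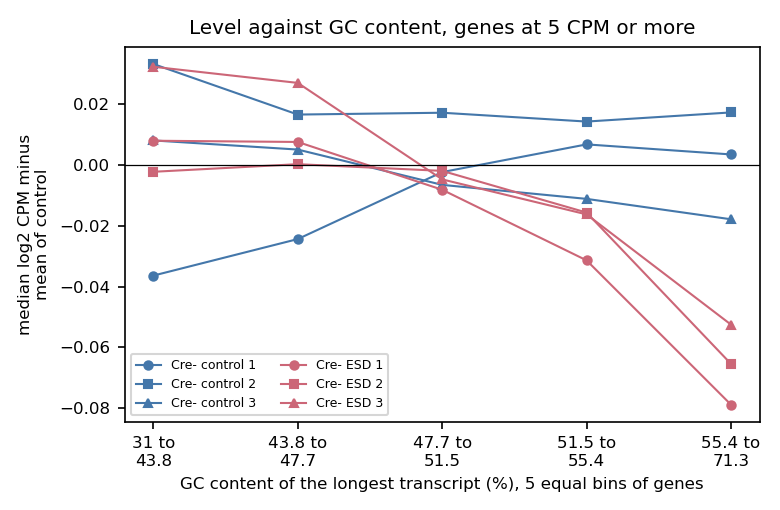
Median over genes of log2 CPM minus the mean of the 3 Cre- controls (vertical axis) in 5 equal bins of transcript GC content, in percent (horizontal axis), for each of the 6 Cre- libraries; genes with at least 5 CPM. In the richest bin the 3 ESD libraries lie at -0.08, -0.07 and -0.05, under all 3 controls.

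Some predicted genes with at least 5 CPM also differed by 2-fold or more, with uneven values. Gm38495 was at 78.8, 103 and 72.6 CPM in the controls and at 17.7, 0.395 and 0.937 CPM in ESD, a log2 fold change of -3.73 ± 1.36. Gm42048 was at 40.5, 31.5 and 46.1 against 0.122, 0.119 and 32.7 CPM, and Gm15564, a long noncoding RNA, at 23.2, 17.8 and 22.97 against 0, 0 and 21.6 CPM. Gm38495 was thus under every control in all 3 ESD libraries, while the other two were at or near 0 in the first and second ESD libraries and nearer the controls in the third. In the AGR cKO control and ESD groups Gm38495 averaged 52.03 ± 36.4 and 48.8 ± 46.5 CPM, and Gm15564 was at 0 in every AGR cKO control (SD, n = 3). These genes were singled out after their values were seen, and a predicted gene can share reads with near-identical copies. Gm46093, another predicted noncoding RNA, was more even, at 5.54, 8.43 and 6.23 against 23.9, 22.7 and 10.5 CPM (1.499 ± 0.29), and DESeq2 called it with an adjusted p of 0.000464. H2aw, a histone gene, was at 0.0654, 0.398 and 0.0234 against 1.44, 2.77 and 2.27 CPM, also called by DESeq2.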

How the data were processed

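Polyadenylated RNA was sequenced from 12 mouse astrocyte samples, RNA integrity number above 7.0 and 1 µg per stranded library, per the labels' protocols. The authors deposited whole-number read counts per gene, with no further normalization stated. The deposited table also holds TPM values, scaled by length and library size, and these served in alternatives only. Per the submitters' processing notes the tools were DESeq2, StringTie 1.3.4b, HISAT2 2.1.0, Bowtie2, Trimmomatic and HISAT with build mm10, whose roles are not stated; whether counting used the strand is not given in the sources used here. The columns "cre_M" and "cre_P" were read as Cre minus and Cre plus, which the labels do not spell out.

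Of 45777 genes, 19163 passed filterByExpr of edgeR 4.0.16 (R 4.3.3). TMM-scaled counts of all 12 libraries were fitted by quasi-likelihood with 1 mean per group, 8 residual degrees of freedom and a common biological coefficient of variation of 0.1945. Tests were two-sided, adjusted by Benjamini-Hochberg over all genes, and called under 0.05. An exact permutation test of 3 against 3 cannot go below 0.1. Alternatives used DESeq2 1.42.0 and limma 3.58.1. The model was also run on simulated counts that gave every gene the common dispersion. Such counts hold no library that stands apart, so that run does not settle how the test behaves on these libraries. The 29 gene lists (492 symbols, 490 tested), the comparison and the rules were chosen with earlier results of these data known. Lists are described by counts and medians, with no test.

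Named genes are those with at least 5 CPM, no overlap between groups and no predicted symbol: the 12 higher and 12 lower with the smallest p, and the 6 highest and 6 lowest folds at an unadjusted p under 0.05. Further named are 11 set genes, up to 4 members per list with the smallest p, genes called by DESeq2 with at least 1 CPM, and up to 6 genes per library that stand 2-fold above the others. Gene coordinates are from RefSeq, GRCm38.p6, joined by gene ID. Counts of motifs used promoters of the same build. A few results are not reported here.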

Additional observations from a re-analysis of the deposited data

How the results depend on the processing

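Among genes of at least 5 CPM, the median coefficient of variation between libraries was 9.82% in the controls and 8.63% in ESD. Across 24 alternatives, edgeR and limma called 0 genes for separation in Cre- animals, with 1 exception: leaving out 1 library at a time gave 0 to 1 calls, the 1 being Zbtb16 without the third AGR cKO ESD library. DESeq2 called 24, and 9 for the difference between genotypes, where the other settings called 0. At an unadjusted p under 0.05, microglial and endothelial covariates gave 863 higher genes in place of 517, and the 6 Cre- libraries alone 549 lower ones in place of 861. Leaving out 1 library at a time gave 364 to 891 higher and 433 to 1431 lower genes. Deviations from the group mean correlated at 0.475, 0.0852 and 0.346 between same-numbered Cre- control and Cre- ESD libraries. The same-numbered control was the best match for ESD libraries 1 and 3 but not for 2. The labels do not say whether a number marks a shared litter or day, so pairing is not settled. A fit with a replicate block called 0 genes, with 536 higher and 881 lower at an unadjusted p under 0.05, and the replicate block with the 6 Cre- libraries alone gave 376 and 533. The GC correction was chosen after seeing the data.

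Reversed log2 fold changes belonged to genes that were not called by any tool. Megf10, at -0.002, turned to 0.0069 with median-of-ratios scaling and with DESeq2, 0.0141 with no filter, 0.0036 with a CPM filter, 0.0081 and 0.0125 with the 6 Cre- libraries without and with the replicate block, and 0.0004 with thinned counts. Covariates turned Hsd11b1 to -0.0801, Sult1a1 to -0.0110, Arrdc2 to -0.0853 and Etnppl to -0.2419, and TPM turned Arrdc2 to -0.0272 and -0.0408. With 1 library left out, the ranges were -0.7437 to 0.0149 for Bcl6, -0.1407 to 0.7005 for Tsc22d3, -0.1455 to 0.2127 for Hsd11b1, -0.1737 to 0.3612 for Sgk1, -0.2637 to 0.8393 for Sult1a1, -6.6603 to 1.4670 for Ttr, -1.1053 to 1.0272 for Aplnr, -0.0850 to 1.7715 for Map3k6, -0.1130 to 1.4375 for Rtp1, -0.1213 to 0.1273 for Megf10, -0.6529 to 0.6206 for Arrdc2 and -0.6126 to 1.3729 for Etnppl. The cause was not tested.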
